A study of Mus musculus with 8 samples.

Results

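The mRNAs of the cytosolic ribosomal proteins were measured in Hepa1-6 cells, a mouse hepatoma line labelled as of C57BL/6 strain. The members are the genes whose symbol is Rpl or Rps followed by a number and at most 1 of the letters a, l or x, together with Rplp0, Rplp1, Rplp2 and Rpsa. That rule took 83 of the 54446 genes counted, 51 of the large (60S) and 32 of the small (40S) subunit, and left out processed pseudogenes named with -ps as well as subunits under other names, such as Rps3a1, Fau and Rack1. Bulk mRNA sequencing covered 8 libraries in 4 groups of 2: cells given trimethylamine N-oxide (TMAO, 50 µM), cells given the cytokine TNF-α (50 ng/ml), cells given both agents at those doses, and control cells given neither. Exposure lasted 24 h. In the group given both, the treatment label names TMAO in the place of each agent, and the title and protocol name TMAO and TNF-α. Every group is the same cultured line, grown with 10% fetal bovine serum, and the libraries of a group carry the numbers 14 and 16. Nothing in the labels says that these came from separate cultures, so the p-values measure only the spread between libraries, which may be technical.

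Each cytosolic ribosome is built from ribosomal RNA and about 1 copy of each ribosomal protein, and the protein genes are among the most highly transcribed of a growing cell. Their mRNAs are short and begin with a C and a run of pyrimidines, the 5′ terminal oligopyrimidine (TOP) start, through which mTORC1 and the RNA-binding protein LARP1 control their translation and storage. Liver cells use them for a heavy load of secreted protein, and surplus ribosomal proteins such as Rpl5 and Rpl11 bind Mdm2, which links ribosome assembly to p53.

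RefSeq promoter sequences (GRCm38.p6, 250 bases before and 50 after the annotated start) were matched for 61 of the 83 members. A C at the start followed by pyrimidines, in all at least 5 bases, was found in 14 of the 61, against 3.01% of the 27025 genes in that table. The processed pseudogene Rpl32l is among the 14. The start used equalled the RefSeq gene boundary for 17086 of 22861 genes with a single promoter, and finding a run depends on that position. Of the motifs searched on both strands, CCGGAAGT lay in 12 of the 61 members and in 4.31% of genes, CTTCCG in 41 members and 18.8% of genes (its reverse complement CGGAAG lies inside CCGGAAGT), TATAAA in 7 members and 15.7% of genes, and AAGATGGC in 5 members and 3.19% of genes. Such matches describe the letters of the window only. The 5 protein-coding members with the longest pyrimidine run that begins with a C are shown because the start is what the family's mRNAs are known for; Rplp0 and Rps2, the most abundant members with a matched sequence, are shown beside them because their annotated start carries no such run. Rpl27a, whose run of 16 pyrimidines begins with a T at the annotated start, is not among them. Each line holds 30 bases before the start and 20 from it, 5′ to 3′ on the gene's strand, with the run in capitals. The windows are chr14:18270967-18271016 (minus strand) for Rpl15, chr2:39005112-39005161 (minus) for Rpl35, chr17:27635225-27635274 (minus) for Rps10, chr17:33955646-33955695 (minus) for Rps18, chr4:86857348-86857397 (minus) for Rps6, chr5:115559437-115559486 (plus) for Rplp0 and chr17:24720033-24720082 (plus) for Rps2.
Rpl15: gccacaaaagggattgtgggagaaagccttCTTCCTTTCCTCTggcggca
Rpl35: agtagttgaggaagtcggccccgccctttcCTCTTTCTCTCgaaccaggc
Rps10: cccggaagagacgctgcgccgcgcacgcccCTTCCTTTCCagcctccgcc
Rps18: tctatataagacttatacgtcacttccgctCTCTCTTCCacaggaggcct
Rps6: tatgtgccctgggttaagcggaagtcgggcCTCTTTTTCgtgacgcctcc
Rplp0: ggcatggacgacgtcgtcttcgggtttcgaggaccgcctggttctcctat
Rps2: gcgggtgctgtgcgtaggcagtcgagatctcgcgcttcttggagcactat

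Depth was 24736746 counts in TNF-α 16, the shallowest library, and at most 30488605 counts (TMAO 16). Of 10 hepatocyte markers, 6 reached 2 CPM (counts scaled to a library size of 1e6) in every library, namely Alb (347.0 to 1228 CPM), Afp, Apoe, Apob, Fgb and Hnf4a, whereas Ttr, Apoa1 and Serpina1a did not exceed 0.34 CPM. Among markers of other cells, 2 of 8 for leukocytes (Cd68 and Csf1r, at most 13.1 CPM), 0 of 5 for endothelium and 1 of 6 for stellate cells and fibroblasts reached that level. The last was Dcn, at 1277 to 1805 CPM, while the other genes of these 3 lists, with Ptprc, Pecam1 and Col1a1 among them, stayed at or under 1.76 CPM. As a check of the cytokine groups, all 12 tested NF-κB target genes of a list rose with TNF-α against control, with a median log2 fold change of 1.67 (edgeR's quasi-likelihood test, adjusted p under 0.05). One library stood apart from its labelled partner in the ribosomal protein genes. Group comparisons of the members that contain TNF-α 16 are therefore given with and without it. The NF-κB check is given with all libraries only.

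Levels were compared between members on the TPM scale, which is per length. By mean TPM, 77 of the 83 members lay above 100 TPM in the 8 libraries, 8 of them above 3000, and 6 lay under 30 TPM. Rplp0, the stalk protein that anchors the P1 and P2 proteins, was the most abundant, with 4459 and 4623 TPM in the TMAO libraries (14 and 16), 4411 and 5565 in the TNF-α libraries, 4313 and 4484 with both, and 4628 and 4578 in the controls. Rps2, which lines the mRNA entry of the small subunit, had 3687 and 3565 TPM with TMAO, 3556 and 5049 with TNF-α, 3501 and 3461 with both, and 3854 and 3599 in the controls. In both genes TNF-α 16 was the highest library by a wide margin and the groups otherwise lay close together. The next most abundant members were Rps14, Rpl23a, Rpl8 and Rpl32, with means of 3732, 3690, 3457 and 3391 TPM, and each had its highest value in TNF-α 16. The order of the 77 members hardly moved between libraries, with Spearman correlations of 0.984 to 0.998 over the 28 pairs of libraries (a description across genes, which are not independent). The large-subunit members summed to 1.46 to 1.49 times the TPM of the small-subunit members in every library.

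At the low end stood paralogs and pseudogene copies. Rpl6l, Rpl32l and Rps4l are pseudogenes in the annotation and averaged 22.05, 1.03 and 0.105 TPM. Rpl3l, the muscle paralog of Rpl3, averaged 0.0472 TPM and had 21 counts over all libraries, while Rpl39l and Rpl10l, known as testis paralogs of Rpl39 and Rpl10, were listed at 0 in every library. Their partners were abundant: Rpl3 and Rpl10, both close to the catalytic and assembly core of the large subunit, had 731.4 to 1025 and 1409 to 1839 TPM, and Rpl39, a small protein of the exit tunnel, had 341.5 to 531.8 TPM. Among these copies Rps27l alone, a paralog of Rps27 known to respond to p53, exceeded 30 TPM, with 249.6 to 420.9 TPM against 1507 to 2341 TPM for Rps27. Rps4x, the X-linked partner of Rps4l, had 2406 to 3384 TPM.

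For some members the counts and the TPM values did not match in size. Rpl24, a large-subunit protein at the interface of the subunits, averaged 8.88 counts and 1003 TPM, and 47.0% of its annotated exon bases are shared on the same strand with the transcript Gm28037. Rps10 (296 counts, 1033 TPM) shared 20.6% of its exon bases with RPS10-NUDT3, and Rpl13a (833 counts, 1600 TPM) shared 35.4%, mainly with Gm45713. Rpl24 had 8 counts in TNF-α 16 and 12 in TNF-α 14, but 1451 TPM in TNF-α 16 and 904.7 TPM in TNF-α 14. Count-based results for these 3 members, and for Rpl23a and Rpl35, whose exons overlap genes on the other strand over 59.7% and 66.2% of their bases, are therefore uncertain. The sources do not give the strand setting of the counting.

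Members took 4.85% and 4.87% of all counts in the TMAO libraries 14 and 16, 4.71% and 8.18% in the TNF-α libraries, 4.84% and 4.72% in the libraries with both, and 5.58% and 4.84% in the controls. TNF-α 16 was the highest and control 14 the next, and the other 6 libraries lay within 4.71% to 4.87%. On the TPM scale the order was the same, with 16% in TNF-α 16, 12.5% in control 14 and 11.1% to 11.5% elsewhere. The ratio of TNF-α 16 to TNF-α 14 was 1.74 by counts and 1.44 by TPM. In a bulk sample fewer cells of a kind and less RNA per cell cannot be told apart, and here a share also depends on all other RNAs of the library.

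**Figure D1:**
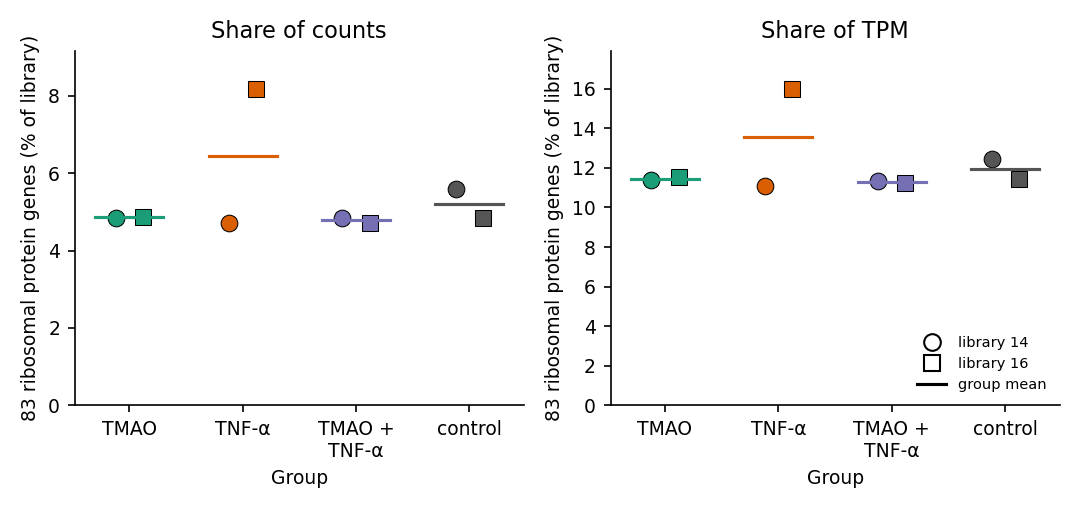
Share of each library taken by the 83 ribosomal protein genes, as percent of counts (left) and of TPM (right), for the groups on the horizontal axis; circles are libraries 14, squares libraries 16 and lines the mean of 2 libraries. TNF-α 16 lies at 8.18% of counts and 16% of TPM, above all other libraries.

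The difference between the 2 TNF-α libraries ran through the whole family. In log2 CPM (counts scaled by TMM, prior count 2), TNF-α 16 minus TNF-α 14 had a median of 0.87 over the 79 members that passed the filter on low counts, and 77 of the 79 were higher in 16. Among the 15534 other genes the median was near 0 (-0.0038), 49.5% were higher in 16, and 5.41% exceeded the members' median. All 74 members with a mean of at least 1000 counts were higher in TNF-α 16, between 0.59 (Rpl23a, near the exit tunnel) and 1.07 (Rpl38, known in mice for its part in translating Hox mRNAs), with an SD of 0.107 across members. Rps26 and Rpl11 were among the 3 nearest to the family mean, both at 0.85. Rpl6l, Rpl32l and Rpl24 lay farthest from it, with a mean of 13.4, 6.25 and 8.88 counts. On the TPM scale all 77 members above 100 TPM, Rpl24 and Rpl35 included, were higher in TNF-α 16, with a median log2 ratio of 0.53 (range 0.20 for Rpl4 to 0.81 for Rps27a); by CPM the same 77 members had a median of 0.87 and 76 were higher.

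**Figure D2:**
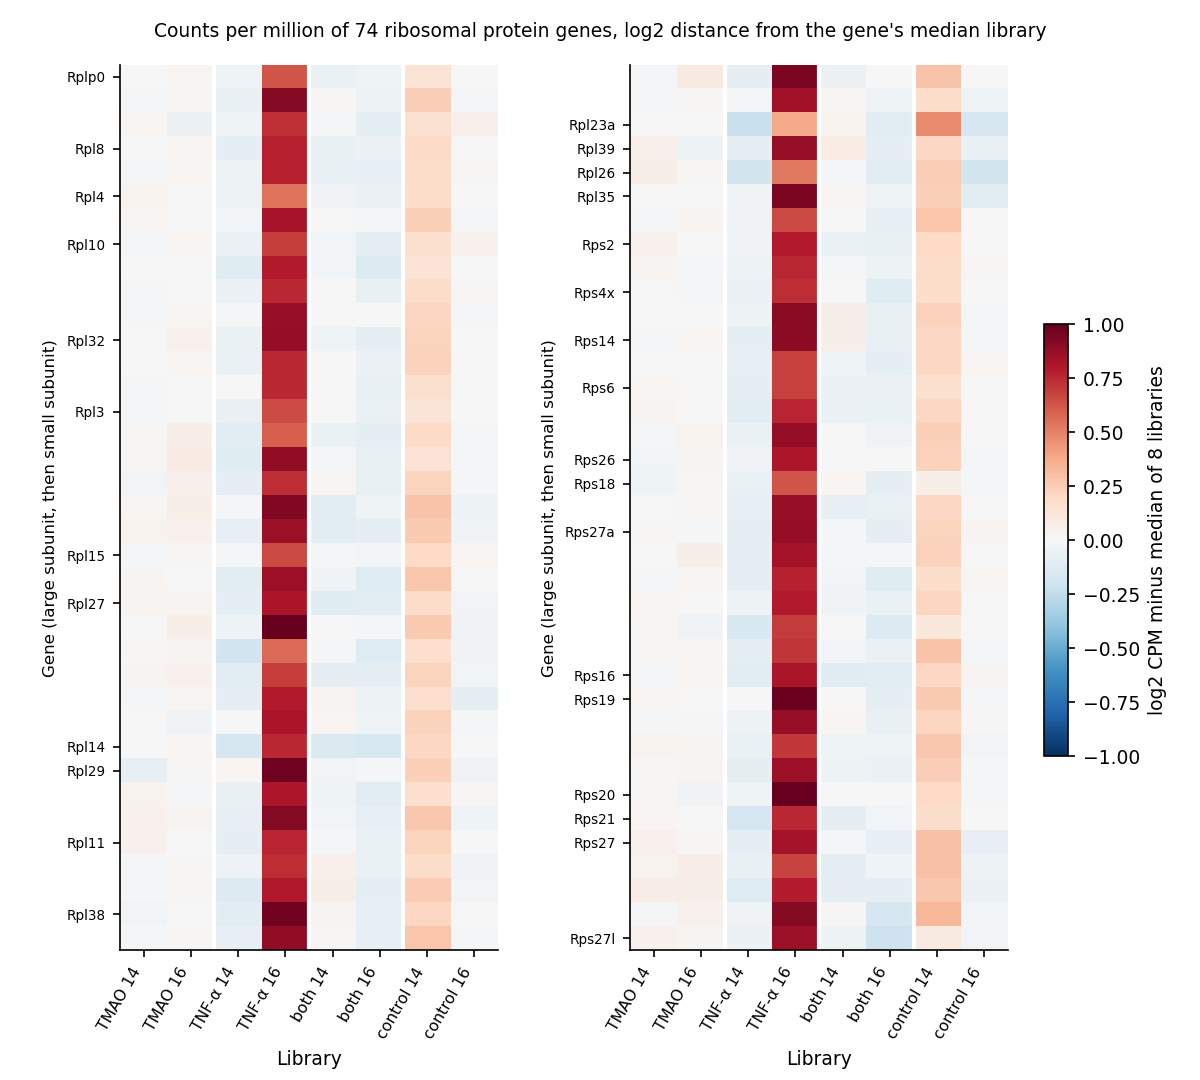
Level of the 74 members with at least 1000 counts on average (rows, large subunit first; genes described in the text are named) in each library (columns; both, TMAO and TNF-α together), as log2 CPM minus the gene's median over 8 libraries; red is above and blue below that median. The column of TNF-α 16 is red in all rows, control 14 is paler red, and the other 6 columns stay near 0.

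The control libraries differed less, and there library 14 was the higher. Control 16 minus control 14 had a median of -0.22 over the 79 members, and 1 member was higher in 16, against 49.9% of the other genes. With TMAO the median difference of 16 minus 14 was 0.01, and with both agents -0.05. Across the 8 libraries TNF-α 16 held the highest value of 76 of the 79 members, against 35.2% of all genes tested, and control 14 was second for 75. Their lowest value fell in TNF-α 14 for 35 members and in the library 16 given both for 31. For the second and lowest ranks no share of all genes was taken, so those counts describe the members only. Over all 8 libraries the 74 abundant members spanned a median of 0.89 log2 units, with the smallest span of 0.60 in Rpl4. Without TNF-α 16 and control 14 the median span was 0.13, and no member spanned more than 0.25 (Rpl23a).

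**Figure D3:**
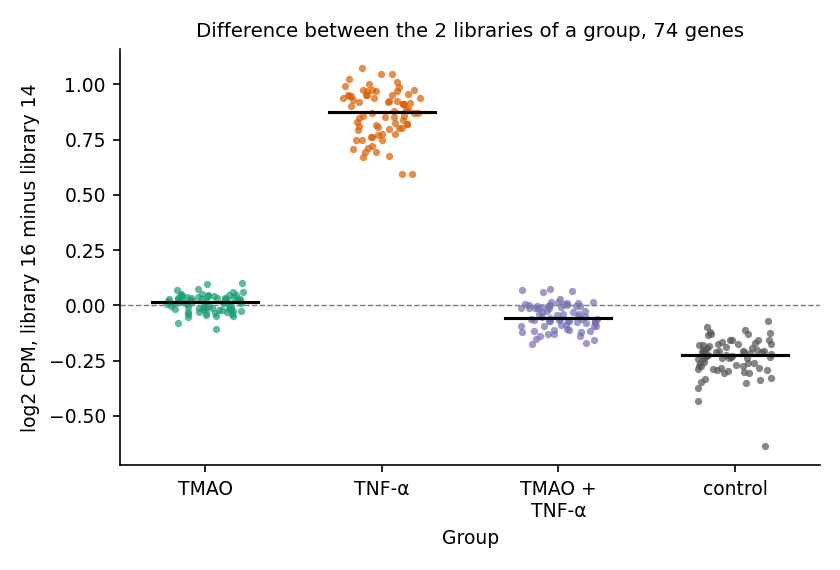
Difference in log2 CPM between libraries 16 and 14 of each group for the 74 members with at least 1000 counts (points) with the median (line). The TNF-α points lie between 0.59 and 1.07, the control points below 0, and the points of the other 2 groups around 0.

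Relative to one another the members largely kept their proportions, least so between the TNF-α libraries. Across the 74 abundant members, 16 minus 14 had an SD of 0.107 with TNF-α and 0.083 in the controls. With both agents it was 0.0578 and with TMAO 0.0382. Each member's share of the family's counts had a median SD of 0.0446 log2 units over the 8 libraries, whereas the SD of its log2 CPM had a median of 0.294. Rpl23a varied most at 0.195, followed by Rpl26 (0.113) and Rpl4 (0.0868), each picked out after its value was seen. Without TNF-α 16 the SDs of these members were 0.145, 0.0867 and 0.0162. The counts of Rpl23a are uncertain, as given above. It had 182.8 and 117.4 CPM in controls 14 and 16, but 3875 and 3529 TPM.

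Members share short mRNAs, and transcript length moved with the same libraries. Median annotated transcript length was 628.5 bases over the tested members with a length, 76 of them under 1000 bases, and 1457 bases over other protein-coding genes. Among those other genes, TNF-α 16 minus TNF-α 14 had a median of 0.34 for transcripts under 600 bases (720 genes), 0.21 for 600 to 1000 bases (3667 genes) and -0.41 for those over 3000 bases (2069 genes). For control 14 minus control 16 the same classes had medians of 0.09, 0.07 and -0.11, and in the groups with TMAO or both agents all length classes lay within 0.01 of 0. The members' medians of 0.87 (TNF-α) and 0.22 (control) lay above every length class, and the classes were not matched for level. Within the 74 members with at least 1000 counts, TNF-α 16 minus TNF-α 14 and transcript length had a Spearman correlation of -0.39. That is a description across genes, which are not independent. Several other lists were higher in TNF-α 16 than in TNF-α 14. Nuclear-encoded respiratory chain and ATP synthase subunits were higher by a median of 0.82 (44 of 44 genes). The proteasome core was higher by 0.73 (14 of 14) and mitochondrial ribosomal proteins by 0.68 (77 of 77). The medians were 0.43 for eIF3 subunits and 0.32 for ribosome biogenesis factors. The list of mTORC1, LARP1 and MYC was not higher (-0.24, 5 of 14 genes higher). Mitochondrially encoded mRNAs (0.03, 7 of 13 higher) and the NF-κB targets (0.09, 9 of 12 higher) differed little in the median. Of the long nuclear RNAs, Malat1 had 123.2 CPM in TNF-α 16 and 261.3 CPM in TNF-α 14, and Kcnq1ot1 had 45.5 and 95.02 CPM, whereas Neat1 had 47.0 and 44.9 CPM. Ribosomal protein pseudogenes named with -ps (300 genes, which share near-identical sequence with the members) summed to 1189 CPM of the library total in TNF-α 16, 751 in control 14 and 642 to 687 elsewhere. What part transcript length or these copies had in the members' differences was not tested.

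**Figure D4:**
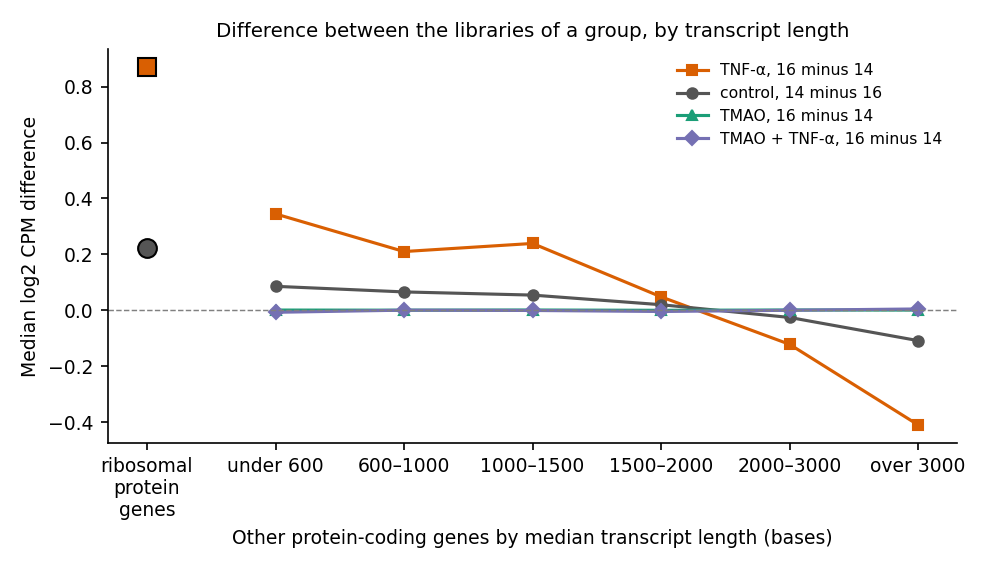
Median difference in log2 CPM between the libraries of each group (lines) over other protein-coding genes, by class of median transcript length in bases, with the medians of the ribosomal protein genes at the left (square, TNF-α; circle, control). The TNF-α line runs from 0.34 in the shortest class to -0.41 in the longest, and the members' median of 0.87 lies above it.

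TNF-α against control asks what the cytokine did to the ribosomal protein genes. With all 8 libraries no member passed edgeR's quasi-likelihood test at an adjusted p under 0.05 (0 of 79, 0 at an unadjusted p under 0.05, and 0 called by DESeq2 or limma-voom), against 4.05% of the 15613 genes tested. The members' median log2 fold change was 0.32, that of all genes 0.02, and 77 of the 79 were above 0. Rplp0 had 2732 and 4368 CPM in the TNF-α libraries 14 and 16, against 3093 and 2819 CPM in the controls. One TNF-α library was thus above both controls and the other below both. The fold change of Rplp0 was 0.26 (SE 0.222, 95% interval -0.26 to 0.79, adjusted p = 0.626). Rps27l had the smallest p, with 85.3 and 160.7 CPM with TNF-α, against 94.7 and 86.9 CPM in the controls (log2 fold change 0.44, SE 0.264, adjusted p = 0.516). Rpl29, Rpl35 and Rps20 came next at 0.47, 0.45 and 0.47.

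TNF-α 16 is left out because it stood apart in these same genes, so calls made without it are conditional on that choice. Without it the median for TNF-α against control turned to -0.19, with the remaining TNF-α library assumed to vary like the other groups. In that fit 2 of 79 members fell, against 5.95% of all genes that fell: Rpl14, a large-subunit surface protein, by 0.27 on the log2 scale (SE 0.081, adjusted p = 0.0381) and Rps21, a small-subunit protein, by 0.26 (SE 0.0795, adjusted p = 0.0447). Rpl14 had 392.5 CPM in TNF-α 14, against 507.5 and 439.8 CPM in the controls, and Rps21 had 273.3 CPM, against 347.6 and 306.0 CPM. Rplp0 was then at -0.11 (95% interval -0.27 to 0.04). Without TNF-α 14 instead, 74 of the 79 members rose, with a median of 0.67, against 23.7% of all genes that rose. The direction for the family therefore rested on which of the 2 TNF-α libraries was used. The size of the fall without TNF-α 16 also depended on the control library. The members' mean log2 CPM was 8.38 in TNF-α 14, 8.42 in control 16 and 8.68 in control 14.

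With both agents against the same controls, 0 of 79 members passed (edgeR, 0 at an unadjusted p under 0.05; DESeq2 and limma-voom 0), against 3.49% of all genes. Their median was -0.15, that of all genes -0.0033, and 2 of 79 were above 0. The median was -0.03 without control 14 and -0.25 without control 16. Rplp0 had 2684 and 2740 CPM with both agents, against 3093 and 2819 CPM in the controls (-0.12, 95% interval -0.65 to 0.40, adjusted p = 0.913). For Rpl14 the values were 397.4 and 394.4 CPM with both, against 507.5 and 439.8 CPM in the controls (-0.26, SE 0.270, adjusted p = 0.842). Both libraries with the 2 agents lay below both controls for these genes. Neither group contains TNF-α 16, but the fit shares its estimate of the spread with all groups, and without that library the same differences had smaller errors: 3 members fell (9.40% of all genes fell), Rpl14 by 0.26 (SE 0.0655, adjusted p = 0.0109), Rps16 by 0.24 (adjusted p = 0.0138) and Rpl27 by 0.20 (adjusted p = 0.0497). The other members of smallest p, Rps10, Rpl13a and Rpl23a, were at -0.27, -0.25 and -0.22 with all libraries.

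TMAO alone against control gave no called member and no called gene among 15613 (percent called 0; DESeq2 called 4 genes and limma-voom 0, none of them members). The members' median was -0.10 and 2 of 79 were above 0, while the median of all genes was 0.0016. Rps2 had 2000 and 1944 CPM with TMAO, against 2226 and 1934 CPM in the controls (-0.08, 95% interval -0.68 to 0.53, adjusted p = 1). The TMAO libraries lay between the controls for this gene, and leaving out control 14 alone moved the median of the family to 0.01. Without TNF-α 16 the members' median stayed at -0.10, with 0 of 79 called and 0.0550% of all genes.

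Both agents against TNF-α asks what TMAO did in cells given the cytokine. Here 0 of 79 members passed (edgeR, 0 at an unadjusted p under 0.05; DESeq2 0 and 6 at that unadjusted p; limma-voom 0), and 0 of all genes. The median was -0.47 with all libraries and 0.03 without TNF-α 16. Rps27l had the smallest p, with 85.5 and 76.9 CPM with both agents, against 85.3 and 160.7 CPM with TNF-α (-0.60, 95% interval -1.23 to 0.03, adjusted p = 0.569). Without TNF-α 16 it was at -0.07 (95% interval -0.25 to 0.10), and Rps19, a small-subunit protein known from Diamond-Blackfan anaemia, was at -0.06 in place of -0.62. The interaction term, the TNF-α effect with TMAO less that without it, asks whether TMAO changed the response to the cytokine. It had a median of -0.38 with all libraries, where 0 members were called, and 0.12 without TNF-α 16. Without TNF-α 14 instead, 75 members fell with both agents against TNF-α and 73 fell in the interaction, against 23.7% and 15.8% of all genes that fell.

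**Figure D5:**
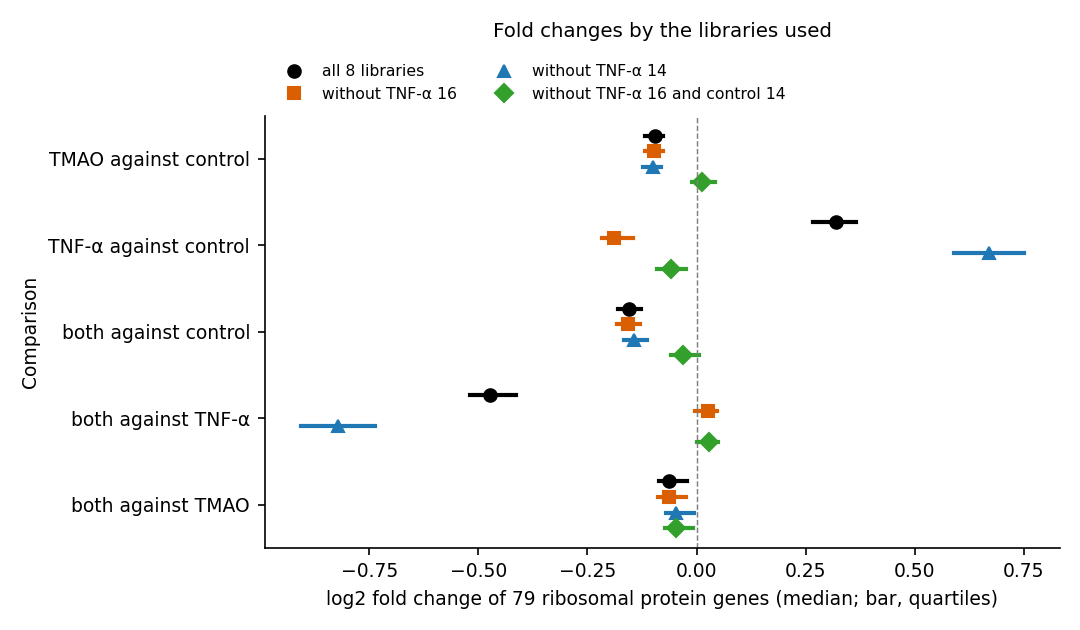
Median log2 fold change of the 79 tested members (symbols) with their quartiles (bars) for 5 comparisons, with all libraries and with 3 sets of libraries left out; both, TMAO and TNF-α together. TNF-α against control lies at 0.32 with all libraries, -0.19 without TNF-α 16 and 0.67 without TNF-α 14.

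With both agents against TMAO, 0 of 79 members passed with all libraries (edgeR, 0 at an unadjusted p under 0.05; DESeq2 and limma-voom 0), against 3.64% of all genes. Their median was -0.06. Rpl14 had 397.4 and 394.4 CPM with both agents, against 440.5 and 445.3 CPM with TMAO (-0.16, 95% interval -0.80 to 0.48, adjusted p = 0.992). Over both pairs of groups (TNF-α averaged over TMAO), 0 of 79 members were called with all libraries (edgeR, 0 at an unadjusted p under 0.05; DESeq2 and limma-voom 0), against 9.20% of genes, and 9 fell without TNF-α 16, where 12.8% of all genes fell. The members' median was 0.13 with all libraries and -0.13 without TNF-α 16.

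TNF-α 16 and control 14 were also left out together. Both were picked because they lay high for these same members, so the calls of that fit are conditional on the outcome and are given as a description, from which nothing is read. In it 23 members fell for both agents against TMAO (15.1% of all genes fell), 33 fell and none rose for TNF-α averaged over TMAO (17.4% of genes fell and 16.6% rose) and 15 fell for TNF-α against control (10.1% of genes fell). With both agents against control 7 fell and 2 rose (11.6% of genes fell and 11.2% rose), with TMAO against control 1 rose (0.0246% of genes rose), and the interaction had 0 (0.00616% of genes called). The member that rose with TMAO was Rpl26, with 103.7 and 100.3 CPM with TMAO, against 87.6 CPM in the control that was kept and 118.1 CPM in the one left out. The group means of Rpl26 over all libraries were 102.0 CPM with TMAO and 102.9 CPM in the controls.

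Genes that build or translate with the ribosome were read from lists. Rack1 and Rps3a1, ribosomal proteins outside the naming rule, had 1458 and 2432 CPM and 1240 and 2143 CPM in TNF-α 14 and 16, against 1699 and 1533 CPM and 1400 and 1245 CPM in controls 14 and 16. They thus had the same high library as the members. With all libraries, no gene passed for TNF-α against control among 7 ribosomal proteins outside the rule, 12 elongation factors and TOP mRNAs, 13 eIF3 subunits, 20 other initiation factors, 35 ribosome biogenesis factors, 21 RNA polymerase I and III genes and 14 genes of mTORC1, LARP1 and MYC (edgeR). For TNF-α averaged over TMAO with all libraries, 1 gene of these lists and of a list of 4 genes around Mdm2 and p53 passed, against 9.20% of all genes. That was Mxd4, a MAX partner that opposes MYC, which fell by 0.61 on the log2 scale (adjusted p = 0.0169) and by 0.57 without TNF-α 16. The following calls appear when TNF-α 16 is left out, in a fit where 12.8% of all genes fell and 12.2% rose. Of the 35 biogenesis factors 8 fell and 0 rose, among them Ltv1 and Nob1, which act on the maturing small subunit, by 0.21 and 0.20 (adjusted p = 0.0068 and 0.00707). Of 13 eIF3 subunits 4 fell (Eif3d, Eif3i, Eif3j1 and Eif3m), of 20 other initiation factors 3 fell (Eif1ax, Eif2b4 and Eif2s2), and of 21 RNA polymerase I and III genes Polr1d and Taf1d fell. Btf3 and Eef1d fell and Pabpc1 rose among the 12 elongation factors and TOP mRNAs, Myc rose by 0.17 beside the fall of Mxd4, and none of the 7 ribosomal proteins outside the rule was called. In the list around Mdm2 and p53, Trp53 rose by 0.23 and Mdm4 by 0.35 in that fit. With all libraries they were at 0.31 and 0.16 (edgeR, adjusted p = 0.112 and 0.757). Mdm4 had 258.7 CPM in TNF-α 14 but 137.3 CPM in TNF-α 16, the library left out. In controls 14 and 16 it had 173.7 and 222.6 CPM. With both agents Mdm4 had 264.5 and 263.0 CPM, against 207.6 and 214.7 CPM with TMAO. In the same order Cdkn1a had 137.5 and 191.6, 153.2 and 134.3, 122.2 and 119.9, and 133.8 and 129.9 CPM. Mdm2 had 361.7 and 310.5, 323.6 and 340.1, 342.1 and 329.8, and 327.1 and 320.9 CPM.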

How the data were processed

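Bulk mRNA was sequenced in 8 libraries of Hepa1-6 cells; per the labels' protocols it was selected from Trizol extracts with oligo beads and read as 150-base pairs. The authors deposited counts per Ensembl gene, made with htseq per the file name, and TPM values per symbol; neither pools libraries. The build was mm9, per the submitters' processing notes. Aligner, annotation and settings are not stated. The members and lists were chosen with earlier results of these data known.

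Gene symbols, classes, lengths and exon overlaps came from GENCODE M21 (54409 of 54446 identifiers matched), another build, so no position in the files is printed. Groups were taken from titles and treatment labels. Genes passing filterByExpr (15613; 79 of 83 members) were scaled by TMM and fitted as 4 group means with edgeR 4.0.16 in R 4.3.3 (glmQLFit, robust, 4 residual degrees of freedom without the prior). Each contrast used the quasi-likelihood F test, its p-values adjusted over all genes (Benjamini-Hochberg, 0.05). CPM are counts scaled by the library total times the TMM factor. Rpl3l (21 counts in all), Rps4l (9), Rpl39l and Rpl10l (0 each) were not tested. The programs were tested on simulated data.

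Named members were, by rule, the 6 with the highest and 6 with the lowest mean TPM, the 4 with the smallest p in each of 7 contrasts, paralog pairs, and the 3 nearest to and 3 farthest from the family in TNF-α 16 minus TNF-α 14; others named for their call or extreme value, namely Rps21, Rps16, Rpl38, Rpl26, Rpl27a, Rpl4 and Rps27a, were chosen after their values were seen. Some genes that the rule named are not reported here. Depth (24736746 to 30488605 counts) sets a limit of 3 counts, 0.0984 to 0.121 CPM, which covers counting error only. Alternatives were each library left out, TNF-α 16 and control 14 left out together, DESeq2 1.42.0, limma-voom (limma 3.58.1), other scalings and filters, a term for the library number, and limma on log2 TPM with pseudocounts of 1 and 0.1. Promoters were credited to RefSeq GRCm38.p6; protein sequences were not used here.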

Additional observations from a re-analysis of the deposited data

How the results depend on the processing

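The counts and medians of members kept their side of the test under DESeq2, limma-voom, other scalings and filters and the TPM fits, with 0 members called in all 7 contrasts. Their medians kept their sign but were smaller in the TPM fits: 0.16 with TNF-α over control (0.32 in the edgeR fit), -0.08 with both over control (-0.15), -0.05 with TMAO over control (-0.10), -0.23 with both over TNF-α (-0.47), 0.06 to 0.07 for TNF-α averaged over TMAO (0.13) and -0.17 for the interaction (-0.38). The cause of the changes listed here was not tested, except that fewer libraries and a lower shared spread are part of leaving libraries out. Leaving out 1 library at a time gave 0 to 74 called members for TNF-α against control (median -0.19 without TNF-α 16 to 0.67 without TNF-α 14), 0 to 3 for both agents against control (median -0.25 to -0.03), 0 to 75 for both against TNF-α (median -0.82 to 0.0266), 0 to 73 for TNF-α averaged over TMAO (median -0.13 without TNF-α 16 to 0.31 without TNF-α 14) and 0 to 73 for the interaction (median -0.73 to 0.12). For the largest count of TNF-α averaged over TMAO the share of all genes is not reported here. That count therefore describes the members only and does not set them apart from other genes. For TMAO against control the median ran from -0.21 to 0.01 and for both against TMAO from -0.0650 to -0.0176. With TNF-α 16 and control 14, chosen by the members' own values, left out together, the called members against control numbered 1 with TMAO, 15 with TNF-α and 9 with both agents, and there were 23 for both over TMAO and 33 for TNF-α averaged over TMAO, while the medians were 0.0295 for both over TNF-α and 0.0212 for the interaction; Rpl23a in both against control turned to 0.14. Scaling by the members' own summed counts, which sets the family near 0 by construction, gave medians of -0.0054 for both agents over control, -0.0067 over TNF-α and -0.0048 over TMAO, and -0.0040 for the interaction, and moved the median of all genes to -0.19 for TNF-α against control. The median for both against TMAO was -0.0273 with total count scaling and -0.0248, -0.0249 and -0.0251 in the TPM fits with pseudocounts of 1 and 0.1 and with no filter.

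Differences of 16 minus 14 correlated at -0.42 between TNF-α and control and at -0.05 to 0.00 between other groups. No effect of the library number in a shared direction was seen. These values cannot tell whether libraries of the same number shared a culture or date. With the number as a replicate block, 0 of 79 members were called, with a median of 0.29 for TNF-α against control. Depth limits only the 6 scarce members, of which 4 were untested, and Rpl24 in the counts. For the other members the spread between libraries set the precision. For TNF-α against control the median half-width of the 95% interval was 0.62 log2 units with all libraries and 0.18 without TNF-α 16.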
